A study of Mus musculus with 2 samples.

Results

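Antisense transcript models are long-read transcripts that lie on the strand opposite an annotated gene. All models that the deposited files place in the antisense class were taken, spike-in sequences excluded. They numbered 6484 in replicate 1 and 10605 in replicate 2, together 17089 of 162296 models of mouse transcripts. Models on the same strand that overlapped were merged across both libraries, which gave 13198 antisense loci. Each locus was then related to its partner, the annotated gene on the opposite strand with which it overlaps.

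The RNA came from gastrocnemius, a large calf muscle, of male B6CASTF1/J mice aged 2 months. These animals are first-generation hybrids of C57BL/6J and CAST/EiJ. Both libraries started from 2 µg of RNA and form a single group with no treatment and no second genotype, so no condition was compared and no p-value was computed. The labels number the males differently but give both the same donor identifier, and the spread between the libraries may therefore be technical. Because tissue was sequenced in bulk, fewer cells of a type and less RNA per cell cannot be told apart.

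Antisense RNAs are made from many mammalian gene loci, often from promoters inside or beside the gene or from a neighbour whose transcript runs past its end. A few of them are known to regulate the gene they overlap, for instance through chromatin or by pairing with its messenger RNA. In sequencing of complementary DNA, a primer of thymines anneals to the poly(A) tail, and it can also anneal to adenine-rich stretches inside an RNA, so the bases that follow the 3′ end of a model are usually inspected. Real introns nearly always start with GT and end with AG on the transcribed strand, and the same intron read on the opposite strand starts with CT and ends with AC.

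The sequences at the 3′ ends of the most-read antisense models are shown first, because the adenine content there is 1 of the main measurements below. Each run below gives the last 10 bases of the model and the 20 bases that follow it, on the antisense strand, with runs of 6 or more adenines in capitals. The letters are those of GENCODE M21 transcripts in build mm10 (GRCm38). Shown are 11 of the most-read loci whose letters are known there and whose 3′ end lies off any annotated exon edge.
Klhl31 antisense, chr9:77656611-77656640, minus strand: AAAAAAAcaactctgtccatataaggatta
2900097C17Rik antisense, chr2:156391566-156391595, plus strand: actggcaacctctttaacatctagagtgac
Pitpnc1 antisense, chr11:107212268-107212297, plus strand: gagaattctttAAAAAAAAAAAAAAAAAAA
Msrb3 antisense, chr10:120783305-120783334, plus strand: aactttggacAAAAAAAAAAAAAAAAtgga
Sod2 antisense, chr17:13016687-13016716, minus strand: aacttgggacaaattacaaaatacgtttaa
Scn4b antisense, chr9:45151555-45151584, minus strand: ccagctgggcAAAAAAgaagctggaaaagc
Zbtb44 antisense, chr9:31070666-31070695, minus strand: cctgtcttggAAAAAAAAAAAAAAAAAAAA
Sdc4 antisense, chr2:164425125-164425154, plus strand: acggagcattAAAAAAAAAAAAAAAAAAAA
Tmem170b antisense, chr13:41637377-41637406, minus strand: tctttcaccAAAAAAAAAAAAAAAAAAAAA
Rc3h2 antisense, chr2:37374659-37374688, plus strand: ctccactctcAAAAAAAAAAAAAAAAgaca
Neat1 antisense, chr19:5834922-5834951, plus strand: agatagaaccAAAAAAAAAAAAAAAAAAAA
Of these 11 windows, 9 held a run of 6 or more adenines and 7 a run of 16 or more. In 8 of the 11, at least 12 of the 20 bases after the end were adenines, and 9 of the 11 loci lay mainly opposite a 3′ untranslated region (3′ UTR) of the partner. The window at Klhl31 is that of the replicate 2 model, which ended just past its adenine run; the model of replicate 1 ended farther downstream.

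Antisense models held 19233 of 1132759 endogenous reads in replicate 1, or 1.70% (95% Wilson interval 1.67 to 1.72%), and 38485 of 1449423 in replicate 2, or 2.66% (2.63 to 2.68%). The mean share was 2.18% ± 0.68 (SD, n = 2), and the gap between the libraries was wider than either counting interval. Models of the genomic class lie on the strand of the gene they are assigned to without matching its splice junctions. That gene can be an unannotated antisense gene, as for 254 and 769 genomic reads. The class also took a larger share in replicate 2, 2.98% against 2.30%. The share of intergenic models was lower there, 0.453% against 0.507%. The intervals cover counting error only, since the reads carry no molecular identifiers.

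The tissue label was checked with 5 muscle genes, whose summed sense reads were 331355 in replicate 1 and 395944 in replicate 2. The 7 markers of other cell types summed to 519 and 749 reads. Among them Ptprc, the CD45 gene of leukocytes, had 0 and 2 reads and Adipoq of fat cells had none, whereas Col1a1 of fibroblasts had 181 and 397. The part of these cells in the antisense results was not tested. Spike-in RNAs give a strand control: 50 ERCC species with 49629 and 31306 reads on their annotated strand had no antisense read, which allows a share of up to 0.00604% and 0.00958%. A further 5 and 4 species, with 359 and 248 reads, were read on the opposite strand alone, and no species had reads on both strands.

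Most antisense loci were small. Models of a single read made up 69.0% and 66.1% of the antisense models in replicates 1 and 2, and the median model length was 1347 and 1132 bases. The reads were concentrated in few loci: the 2 most-read loci held 22.6% and 21.8% of antisense reads, the 20 most-read 31.6% and 32.4%, and the 100 most-read 41.5% and 44.3%.

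Recurrence between the libraries followed the number of reads. Of the 13198 loci, 3377 (25.6%) were found in both libraries, against 549 of 3003 intergenic loci (18.3%). A locus of 1 summed read cannot be found in both libraries. Single-read models made up 76.6% and 74.1% of intergenic models, more than of antisense models, so the 2 shares are not directly comparable. Among antisense loci with at least 10 summed reads, 587 of 612 (95.9%) were found in both, and among such intergenic loci 82 of 94 (87.2%). The shared loci held 81.6% of the antisense reads of replicate 1 and 72.7% of those of replicate 2.

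The locus with the most reads lay opposite Gm26917, a long noncoding RNA gene at chr17:39843013-39846341 on the plus strand. The antisense model, chr17:39843013-39846245, had 2119 reads in replicate 1 and 4620 in replicate 2, against 7 and 13 sense reads of Gm26917. That is 2529 ± 931 CPM (SD, n = 2; CPM, reads per 1000000 endogenous reads), high in both libraries. Both of its ends sat exactly on annotated exon edges, and 108 bases upstream on the same strand ended CT010467.1, which GENCODE annotates as a ribosomal RNA gene. CT010467.1 itself had an antisense locus of 117 and 107 reads at chr17:39846353-39846958, on the plus strand and thus along the strand of Gm26917. Both loci lie at or beside ribosomal RNA sequence, which has near-identical copies in the genome, so the placement of their reads is uncertain.

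The second locus lay opposite the 3′ UTR of Klhl31, which encodes a kelch protein of striated muscle. It had 2237 reads in replicate 1 and 3780 in replicate 2, or 2291 ± 448 CPM (SD, n = 2), against 89 and 113 sense reads. In each library nearly all of these reads belonged to 1 unspliced model. Measured from the annotated start of Klhl31, the model spanned 20024 to 21701 bases in replicate 1 and 20131 to 23627 bases in replicate 2. In both it lay inside the last exon, which spans 18627 to 23627. The 5′ end in replicate 2 coincided with the annotated end of the gene. The 3′ end of that model lay beside the adenine run printed above, and the 3′ end in replicate 1 lay past it.

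**Figure D1:**
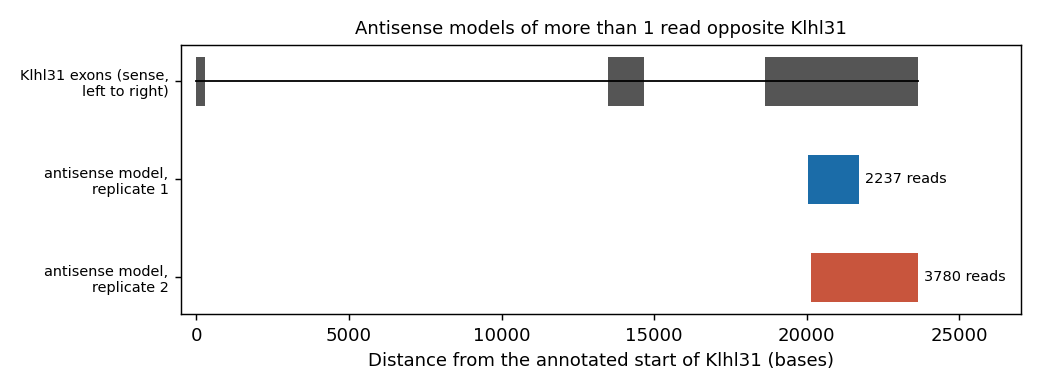
The bars show, to scale, the annotated exons of Klhl31 and the antisense models of more than 1 read in each library, by distance in bases from the annotated start of the gene, with sense transcription running from left to right. The model of replicate 1 (2237 reads) spans 20024 to 21701 bases and that of replicate 2 (3780 reads) 20131 to 23627, both inside the last exon.

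The 20 loci with the most reads were all unspliced. Of these, 12 lay mainly opposite a 3′ UTR, 5 opposite exons of noncoding genes and 2 opposite introns, and 1 reached mainly outside its partner. In 15 of the 20 the locus had more reads than the sense strand of its partner in both libraries. The share of reads was higher in replicate 2 for 17 of the 20, against 80.2% of all 273 antisense loci with at least 20 summed reads.

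Cdv3 had 245 and 562 antisense reads in replicates 1 and 2, against 39 and 53 sense reads, at chr9:103354101-103355313. Antisense reads of Cdv3 thus outnumbered its sense reads several-fold in each library.

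Nfia, a transcription factor of the nuclear factor I family, had 124 and 219 antisense against 14 and 9 sense reads. For Pitpnc1, a phosphatidylinositol transfer protein, the reads were 110 and 200 antisense against 21 and 38 sense. Sdc4, the heparan sulfate proteoglycan syndecan 4, had 33 and 136 against 4 and 6. In these 3 genes the antisense strand was the more-read strand in both libraries.

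Other partners showed the opposite order. Opposite Sod2, the mitochondrial superoxide dismutase, 61 and 131 antisense reads stood against 263 and 516 sense reads. Ptp4a2, a protein tyrosine phosphatase, had 148 and 295 antisense against 517 and 657 sense reads, and its locus lay mainly in an intron. Msrb3, a methionine sulfoxide reductase, had 71 and 238 antisense reads against 92 and 138 sense reads, so that the more-read strand differed between the libraries.

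The remaining loci among the 20 ranged from 0 to 554 reads in a library. Scn4b, a sodium channel beta subunit, had 64 and 122 antisense reads against 34 and 70 sense reads. Klf13, a zinc finger transcription factor, had a locus in its intron with 87 and 96 reads against 27 and 15 sense reads. Sept2, a septin of the cytoskeleton, had 99 and 126 against 2 and 5, and the noncoding gene 2900097C17Rik 183 and 340 against 144 and 225. Reads opposite Zbtb44 numbered 48 and 125, those opposite Tmem170b 64 and 99, and those opposite the pseudogene Tmem250-ps 77 and 174. The loci opposite Gm26825 (0 and 554 reads) and Dyrk1b (0 and 159 reads), each found in replicate 2 alone, are described with the differences between the libraries.

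By bases, antisense models covered mainly introns: 78.4% of their exonic length in replicate 1 and 78.8% in replicate 2 lay opposite introns, and 7.97% and 7.96% opposite 3′ UTRs. By reads the picture shifted to 3′ UTRs, which took 30.2% and 34.1% of the reads, while introns took 44.4% and 39.4%, exons of noncoding transcripts 17.3% and 19.3%, and coding sequence 2.55% and 2.48%. Of the reads opposite exons, 58.0% and 59.4% fell on 3′ UTRs and 4.89% and 4.31% on coding sequence. Of the bases opposite exons, 46.4% and 46.8% fell on 3′ UTRs and 20.5% and 19.6% on coding sequence. In the 6796 genes with at least 20 summed sense reads, 3′ UTRs made up 31.5% of the exonic bases and coding sequence 31.3%. Without the 2 most-read loci the 3′ UTR shares of reads opposite exons were 63.0% and 68.3% and the coding shares 8.64% and 6.96%.

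Partners with many antisense reads had long 3′ UTRs. The median annotated 3′ UTR was 2968 bases in the 349 coding partners with at least 20 summed antisense reads and 1205 bases in the 6556 coding genes with at least 20 sense reads. The corresponding medians of the gene span were 66322 and 21875 bases. The part of gene length in the antisense counts was not tested.

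By position along the partner, 6561 loci (49.7%) lay within an intron, 1586 (12%) within an exon and 3646 (27.6%) across exon and intron. Of the last kind, 1255 overlapped the exon by 2 bases or fewer. Counted as intronic, they would raise the intronic share to 59.2%. Another 627 loci reached the partner's 3′ end (tail-to-tail), 540 its 5′ end (head-to-head) and 114 spanned it, while 124 overlapped no annotated gene on the opposite strand. Of these, 325 tail-to-tail loci (51.8%) and 117 head-to-head loci (21.7%) reached 0 bases past the partner's end. Among the loci with at least 20 reads the order was different: 90 lay within an exon, 62 across exon and intron, 54 tail-to-tail and 48 within an intron, 9 head-to-head.

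The loci lay opposite 6582 partner genes, of which 90.7% code for protein. For 57.4% of partners there was 1 locus, and 54 partners had 10 or more. Dmd, the very long gene of dystrophin, had the most with 40 loci, which together held 42 and 109 reads. The number of loci per partner rose with the partner's span (Spearman rho 0.45 across 6553 genes, which share the same libraries and are not independent replicates).

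Among partner genes, which by definition have antisense reads, the number of these reads followed the sense level weakly or not at all. Genes without antisense reads are left out, so these values do not describe all genes. Across the 377 partners with at least 20 summed antisense reads, Spearman's rho between antisense and sense reads was 0.0038, a description over genes of the same libraries. Across the 5790 partners with a sense read it was 0.197. In 120 of the 377 (31.8%) the antisense strand had more reads than the sense strand in both libraries, in 132 in replicate 1 and in 169 in replicate 2. The median ratio of antisense to sense reads was 0.377 and 0.677, with the 25 and 21 partners without a sense read in that library left out.

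**Figure D2:**
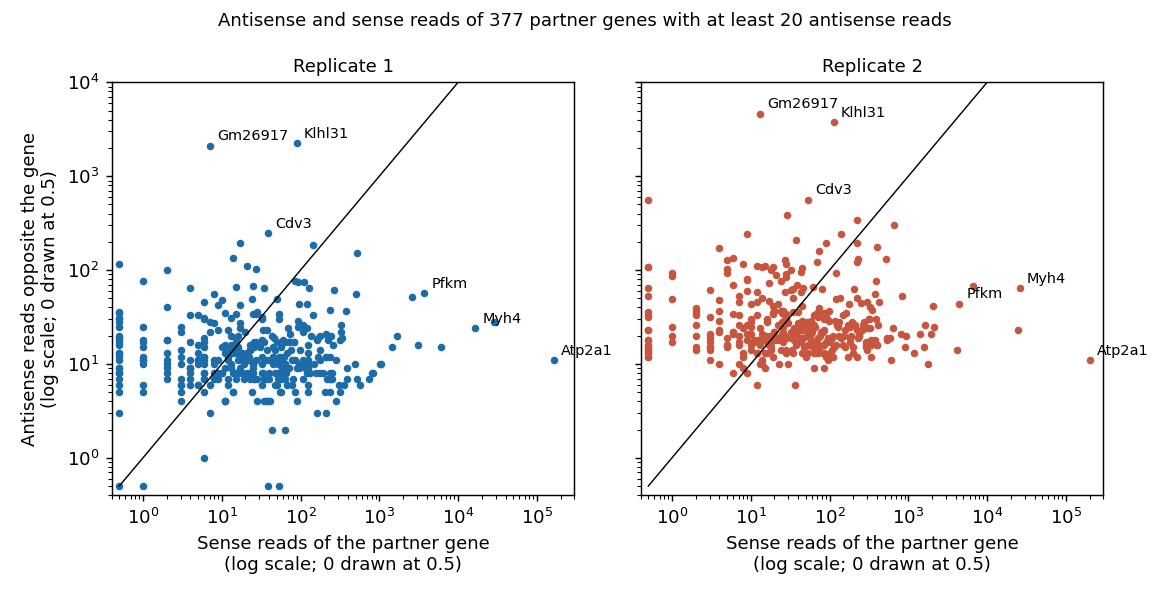
Each point is 1 of the 377 partner genes with at least 20 summed antisense reads, with the sense reads of the gene on the horizontal axis and the antisense reads opposite it on the vertical axis, both as reads on log scales, in replicate 1 (left) and replicate 2 (right). Points above the diagonal, 132 and 169 genes, have more antisense than sense reads, and the cloud shows no slope.

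The highest ratios belonged to genes with almost no sense reads. After Gm26917, Spry2, an inhibitor of receptor tyrosine kinase signalling, had 31 and 92 antisense reads against 0 and 1 sense reads. BC024978 had 19 and 49 against 0 and 1. They were followed by Tmem250-ps with 1 and 4 sense reads and Sept2. With so few sense reads these ratios carry wide counting error.

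Grouped by sense level, antisense reads per 1000 sense reads fell steadily from 262 and 352 in genes with 1 to 9 summed sense reads to 98.3 and 141 at 10 to 99 reads. They were 22.7 and 33.0 from 100 to under 1000 reads, 2.87 and 3.38 from 1000 to under 10000, and 0.197 and 0.331 in the 19 genes with 10000 or more. The share of genes with any antisense read, in contrast, went from 24.2% to 47.6%, 55.7%, 59.3% and 57.9% across the same groups. It was 1.94% in the 40861 genes without a sense read. The groups were formed on the sense reads that also divide the ratio, so a fall of the ratio is partly built in. The 6049 genes with 1 to 9 sense reads held 2136 and 4064 antisense reads, and the 19 genes of the highest group 102 and 191. Per gene, antisense reads were thus more numerous in the highest group than in the lowest. The 20 most-read genes held 47.2% and 41.6% of sense reads and 0.530% and 0.499% of antisense reads.

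Of 35 listed genes of the contractile apparatus 23 had an antisense read, 184 in replicate 1 and 337 in replicate 2 in all. Among the 33 with at least 20 sense reads the share was 69.7%. The median was 0.732 antisense reads per 1000 sense reads, against 2.06 over all 6796 genes with at least 20 sense reads, of which 3521 (51.8%) had an antisense read. Genes were not matched for sense level in this comparison or in those of the lists below. Acta1, the skeletal muscle actin, had none against 68197 and 74164 sense reads.

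The members of that list differed widely. Ttn, the giant sarcomeric spring titin, had 37 and 76 antisense reads against 376 and 390 sense reads, and nebulin (Neb) 18 and 28 against 225 and 274. Ldb3, a Z-disc protein also called cypher, had 11 and 27 against 178 and 194. Myh4, the fast IIb myosin heavy chain, had 24 and 64 against 16494 and 25951. Myotilin (Myot) had 15 and 41 against 1440 and 2065, and Tpm1, a tropomyosin, 28 and 23 against 28529 and 24663. Per sense read, the titin, nebulin and Ldb3 genes thus lay far above Myh4 and Tpm1 in both libraries. The antisense reads themselves overlapped in range between these 2 sets, while the sense reads differed widely. Gene spans differed too, with 278568, 241828 and 62080 bases for Ttn, Neb and Ldb3 against 22418 for Myh4 and 26817 for Tpm1. The part of gene length was not tested.

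Calcium handling genes had an antisense read in 13 of 16 cases, with 85 and 90 reads and a median of 3.32 per 1000 sense reads. Of the 15 with at least 20 sense reads 86.7% had one, against 51.8% of all genes. Pvalb, the calcium buffer parvalbumin, supplied 52 and 25 of them against 2574 and 2093 sense reads. Trdn, triadin of the calcium release complex, had 8 and 21, the calcium pump gene Atp2a1 11 and 11 against 163251 and 203279 sense reads, and the release channel gene Ryr1 6 and 8. Of these 4, Pvalb alone had more reads in replicate 1.

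Glycolysis and phosphocreatine genes had one in 11 of 17 cases, with 126 and 178 reads and a median of 0.657, or 64.7% of the 17 genes against 51.8% of all genes. Pfkm, the muscle phosphofructokinase, had 57 and 44 antisense reads against 3717 and 4431 sense reads. Ak1, adenylate kinase, had 15 and 68 against 6121 and 6661, Pgm1 20 and 26, and the pyruvate kinase gene Pkm 5 and 12. Nuclear genes of mitochondrial energy metabolism had one in 19 of 27 cases, or 70.4% (35 and 94 reads, median 1.31), led by Vdac1 with 7 and 24, Hadhb with 4 and 15, Uqcrc1 with 6 and 11 and Ogdh with 5 and 10. The medians of both lists lay below that of all genes.

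On the mitochondrial genome 7 of 15 listed genes had antisense reads, 10 and 22 in all. Of the 11 with at least 20 sense reads 45.5% had one, against 51.8% of all genes. The models assigned to mt-Nd6, the only protein gene on its strand, had 4 and 13 reads against 0 and 1 sense reads. The whole locus there, which also holds a model assigned to another gene, had 19 and 13 reads, so that the library with more reads differed between these sums. It overlaps models of mt-Cytb and mt-Nd5 on its own strand, whose 716 and 1195 reads were counted over their whole length. How many of those reads lie at the locus was not measured, and mt-Nd5 ended 505 bases upstream of the most-read antisense model. The others with most were mt-Nd4 with 3 and 6, mt-Co1 with 1 and 1 and mt-Nd5 with 1 and 0.

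Of 10 listed translation genes 4 (40%) had antisense reads, against 51.8% of all genes, with 2 and 8 reads, namely Rpl3l (2 and 4), Rps3 (0 and 2), Eef1a1 (0 and 1) and Eef1a2 (0 and 1). Of 13 genes of matrix and blood cells, Col1a1 (1 and 6), Sparc (0 and 4) and Col1a2 (0 and 2) had antisense reads, 30% of the 10 with at least 20 sense reads.

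Of 16 genes that a known antisense RNA overlaps, 6 had antisense-class reads here. Of the 7 with at least 20 sense reads the share was 57.1%, near the 51.8% of all genes. Malat1, an abundant nuclear noncoding RNA, had 18 and 90 against 32 and 28 sense reads, so that the antisense reads were fewer than the sense reads in replicate 1 and more in replicate 2. Besides Myh4, Myh2 had 0 and 5, Zeb2 2 and 3, Bace1 0 and 3 and Kcnq1 0 and 1. The other 10 had no antisense-class read. Reads assigned to an annotated antisense gene belong to other classes, so these counts cannot show whether the known antisense RNAs were present.

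The deposited ends of antisense models coincided with the annotation far more often than positions nearby. A 5′ end lay exactly on the edge of an annotated exon, of either strand, in 1773 models (27.3%) of replicate 1 and 2904 (27.4%) of replicate 2. In contrast, only 194 (2.99%) and 364 (3.43%) lay 1 to 500 bases from an edge, fewer than the 960 (14.8%) and 1640 (15.5%) at 501 to 1000 bases. For 3′ ends, 1237 (19.1%) and 2063 (19.5%) lay on an edge, 57 (0.879%) and 153 (1.44%) within 1 to 300 bases, and 922 (14.2%) and 1494 (14.1%) at 301 to 600 bases.

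**Figure D3:**
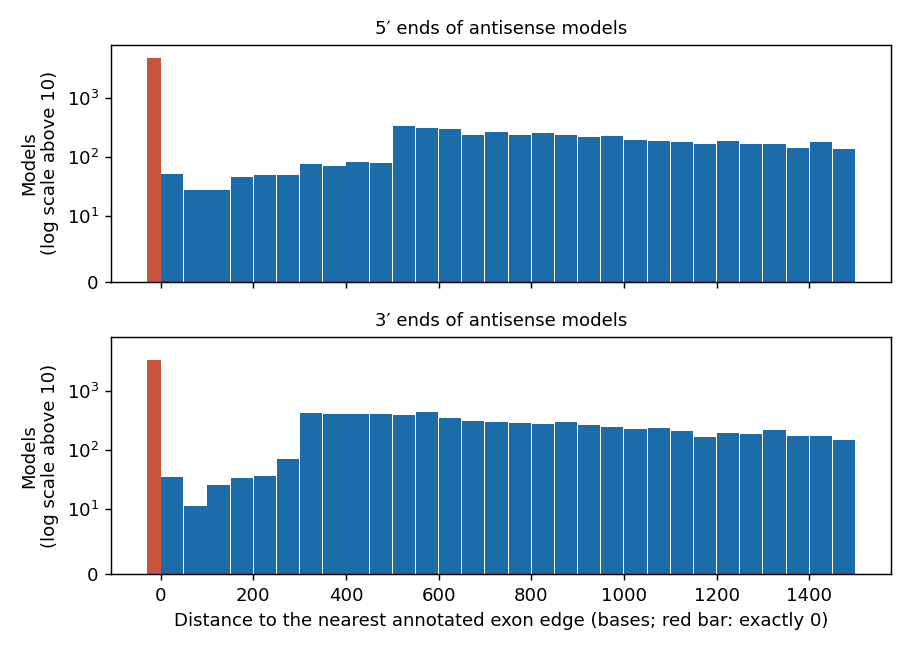
The bars count antisense models of both libraries by the distance in bases from their 5′ end (top) or 3′ end (bottom) to the nearest annotated exon edge, with a vertical scale that is logarithmic above 10. The red bar at exactly 0 holds 4677 of the 5′ and 3300 of the 3′ ends, and it is followed by a gap of about 500 and 300 bases with few models.

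Both ends lay on an edge in 595 and 995 models, which held 20.6% and 21.5% of antisense reads, and neither did in 4069 (62.8%) and 6633 (62.5%). Models of 10 bases or fewer numbered 77 and 153, with 261 and 437 reads, and 48 and 106 of them had both ends on edges. Whether ends on an edge are those of the RNA was not tested, and the sequence beside the ends was read apart for ends on and off edges.

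At 3′ ends off annotated edges, 445 of 617 models (72.1%, 95% Wilson interval 68.5 to 75.5%) in replicate 1 had at least 12 adenines among the 20 bases that follow. In replicate 2 it was 865 of 1149 (75.3%, 72.7 to 77.7%), and the mean was 73.7% ± 2.2 (SD, n = 2). On annotated edges the shares were 5.39% and 6.09%, before 5′ ends off edges 0.524% and 1.63%, and over all 20-base windows inside antisense models 2.80%. After off-edge 3′ ends of genomic-class models they were 20.2% and 22.5%. Letters were known for 11.8% and 13.5% of the off-edge models, those whose 3′ end lies within an annotated transcript, so these shares describe exonic ends and not ends in introns.

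**Figure D4:**
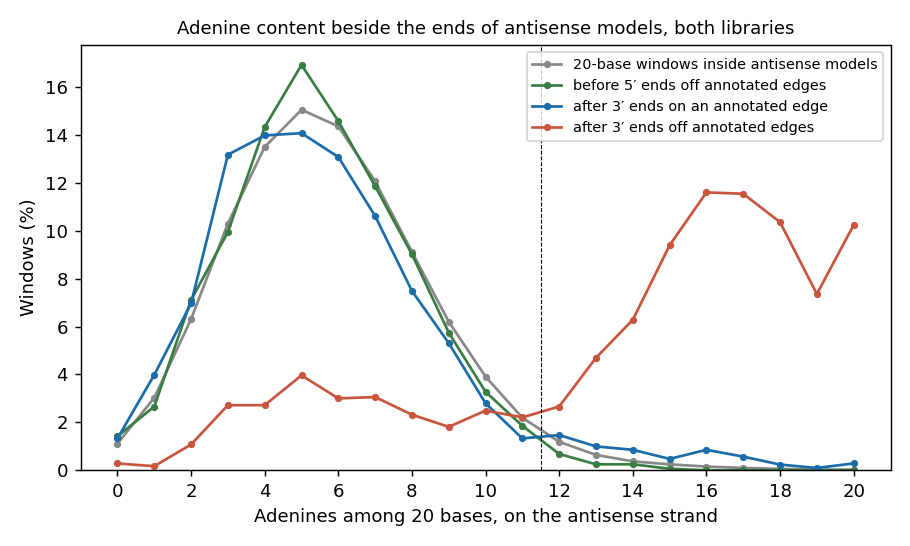
The lines give the percentage of 20-base windows with each number of adenines on the antisense strand, in both libraries together, after 3′ ends off annotated edges, after 3′ ends on an edge, before 5′ ends off edges and inside antisense models. The dashed line marks 12 adenines, above which lie 72.1% and 75.3% of windows after off-edge 3′ ends in replicates 1 and 2 and 2.80% of windows inside the models.

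The share was similar in little-read and much-read models: 72.0% and 74.1% in models of 1 read, and 69.2% and 74.3% in models of 10 or more. Weighted by reads it was 40.2% and 47.8%, and the model opposite Klhl31, among the most read, was below 12 adenines. A run of at least 8 adenines, searched on the antisense strand from 10 bases before to 20 after the 3′ end, was present in 51.7% and 45.7% of ends, against 1.16% of windows of the same length inside the models. Whether these reads were primed at the adenine stretches was not tested.

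The position of the 3′ end was repeatable. Among loci unspliced in both libraries whose most-read models ended off edges in both, the 3′ end was on the same base in 60.5% of 2386 loci and within 10 bases in 79.4%. The 5′ end of 2030 such loci was on the same base in 16.7% and within 10 bases in 37.3%, with a median distance of 268.5 bases. The antisense models therefore shared their 3′ ends between libraries more often than their 5′ ends.

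A gene on the same strand that ended less than 5000 bases upstream was found for 8.50% and 8.11% of antisense models, holding 21.3% and 22.4% of antisense reads, or 13.4% and 13.3% without the 2 most-read loci. For the intergenic class it was 22.9% and 20.0% of models and 11.1% and 16.6% of reads. Among the 20 most-read loci, besides Gm26917, Cdv3 had Topbp1 ending 4041 bases upstream, Msrb3 had 4921513I03Rik at 2902 bases, Klf13 had E030018B13Rik at 997 bases, 2900097C17Rik had Rpl21-ps9 at 843 bases and CT010467.1 had Gm26917 at 12 bases.

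Spliced models were few, 402 (6.20%) in replicate 1 and 571 (5.38%) in replicate 2, with 2.90% and 2.25% of antisense reads. Intergenic models were spliced in 10.7% and 10.6%. Of the 649 and 874 introns in spliced antisense models, 126 (19.4%) and 202 (23.1%) had exactly the coordinates of an annotated intron of the opposite strand and are called mirrored here.

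The letters at both ends were known for 20 of 284 distinct mirrored introns. All 20 were CT-AC on the antisense strand, which is GT-AG on the strand of the gene. Because a mirrored intron is defined by an annotated intron of the other strand, this follows from the definition. Of 1067 other distinct introns the letters were known for 51, of which 47 were GT-AG, 3 GC-AG and 1 neither. Letters were known only where annotated transcripts hold both ends, so these counts do not describe all introns. Some of the 47 were short, and those opposite Lifr (66 bases) and Dcaf6 (53 bases) had the same letters around both junctions. Mirrored and other introns are shown by the junctions with 10 bases on each side, the first and last 2 bases of the intron in capitals. The junctions were chosen to show both kinds among chains found in both libraries.
Nr2f2 antisense, mirrored intron chr7:70354932-70357762, plus strand, start: ccacaggcatCTggaagaaa
Nr2f2 antisense, the same intron, end: tccttcctACctgaggtgaa
Atp2a1 antisense, mirrored intron chr7:126448383-126448536, plus strand, start: catcccctgtCTgaagacgg
Atp2a1 antisense, the same intron, end: gacttctcACcatggctgtg
Gm36981 antisense, other intron chr3:84061805-84062551, plus strand, start: agtagaagtgGTaagtagga
Gm36981 antisense, the same intron, end: tgctttacAGacaagcttgc
Baz2b antisense, other intron chr2:59959933-59962255, plus strand, start: ctatgtggagGTgaggtgct
Baz2b antisense, the same intron, end: tgctgtgcAGgatgggcgag
The chain of Nr2f2 had 6 reads in replicate 1 and 11 in replicate 2, that of Atp2a1 4 and 5, that of Gm36981 1 and 3 and that of Baz2b 1 and 1. The introns of Nr2f2 and Atp2a1 carry splice signals on the strand of the gene, those of Gm36981 and Baz2b on the antisense strand. What gave reads with mirrored introns their strand was not tested.

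Counted as chains of introns, 895 distinct spliced antisense chains were found, and 78 (8.72%) were found in both libraries. All introns were mirrored in 199 of the 895 (22.2%) and in 22 of the 78 shared chains (28.2%). The shared chain with the most reads lay opposite Mbnl1, the muscleblind splicing regulator of muscle, with 23 and 52 reads and a single, mirrored intron. Crebbp, a histone acetyltransferase gene, had a chain of 8 and 11 reads with 5 of 5 introns mirrored, and the 2 introns of the orphan receptor gene Nr2f2 were both mirrored.

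Shared chains without mirrored introns lay opposite 9030025P20Rik with 6 and 14 reads and Ldb3 with 5 and 12. Lbx1, a homeobox factor of migrating muscle precursors, had 10 and 6, the noncoding gene Lncpint 3 and 9 and B230206L02Rik 4 and 7. The chains of Myot (5 and 8 reads) and Lyrm4 (4 and 8 reads) each had a single, mirrored intron. Of the 10 shared chains with the most reads, those of Mbnl1, Crebbp, Nr2f2, Myot and Lyrm4 thus consisted of mirrored introns alone, and the chain of Lbx1 was the only 1 with more reads in replicate 1.

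Between the libraries, loci are compared as CPM, as the log2 ratio of replicate 2 to replicate 1 after adding 0.5 reads. Among the 273 antisense loci of 20 or more reads in all, 92 (33.7%) lay over 2-fold higher in replicate 2 and 10 (3.66%) over 2-fold higher in replicate 1. Among 6796 annotated genes with at least 20 sense reads the shares were 6% and 1.68%, and among 45 intergenic loci 24.4% and 15.6%. The median log2 ratio was 0.71 in antisense loci, 0.25 in intergenic loci and 0.11 in annotated genes, and 80.2% of the antisense loci were higher in replicate 2. With median-ratio size factors, which moved the median of annotated genes to 0.02, the antisense median was 0.63, with 85 loci over 2-fold higher in replicate 2 and 11 in replicate 1.

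**Figure D5:**
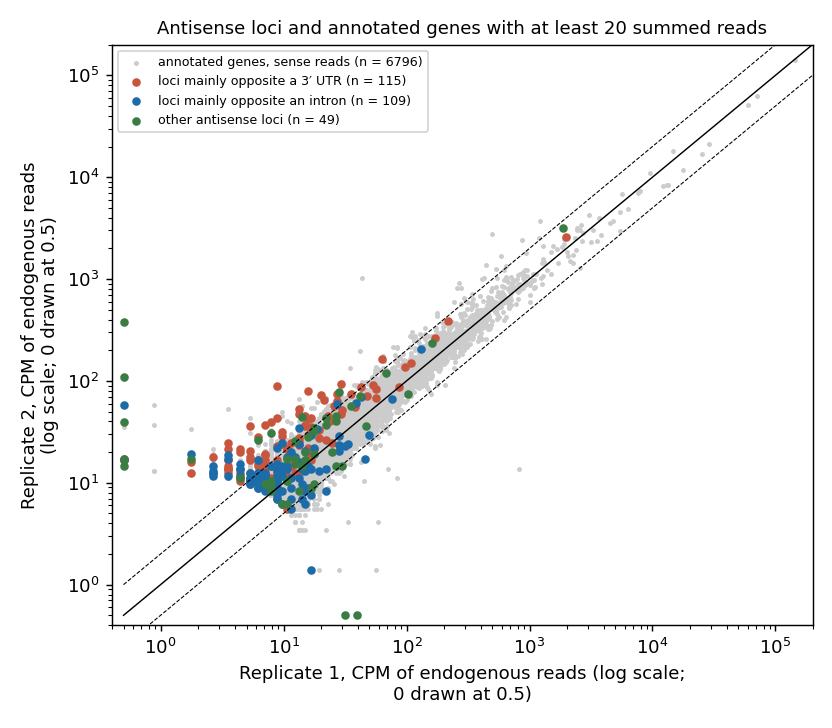
Each point is an antisense locus (coloured by region of the partner) or an annotated gene (grey) with at least 20 summed reads, by its CPM in replicate 1 and replicate 2 on log scales, with 0 drawn at 0.5. The solid line marks equal values and the dashed lines 2-fold, and after adding 0.5 reads 92 of the 273 loci are past the upper dashed line and 10 past the lower.

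The shift was unequal among the loci. Of 115 loci mainly opposite a 3′ UTR 59 (51.3%) were over 2-fold higher in replicate 2 and none in replicate 1, with a median log2 ratio of 1.03. Of 109 loci mainly opposite an intron 20 (18.3%) and 7 (6.42%) were, with a median of 0.48. Of 75 loci with an off-edge 3′ end followed by at least 12 adenines 41 (54.7%) were over 2-fold higher in replicate 2 (median 1.14), and of 26 off-edge loci with fewer adenines 8 were (median 0.90). These groups overlap, and the difference between them was not tested.

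The sense reads of the same partners moved little. For the 199 of these loci whose partner had at least 20 sense reads, the median log2 ratio of the sense reads was 0.04, and 9 of the partners were over 2-fold higher in replicate 2. Across loci or genes with at least 20 reads, Spearman's rho between the libraries was 0.447 for 273 antisense loci, 0.218 for 45 intergenic loci and 0.919 for 6796 genes, as a description of sets with different ranges of counts.

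The loci farthest apart were those read in 1 library alone. Gm26825 had 0 and 554 reads. Its model is 86 bases long and overlaps Gm15459 on its own strand, which had 1154 reads of other classes in replicate 1 and 862 in replicate 2. Dyrk1b, a protein kinase of muscle differentiation, had 0 and 159 reads. This locus is 2009 bases long and overlapped Dyrk1b by only 1 base, at the 3′ end of the gene. In replicate 1 the same place held 129 reads of the intergenic class, so that reads were present in both libraries under different class names.

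At Satb1, a chromatin organiser, a model of 1 base had 36 and 0 reads, and 35 bases away a model at chr17:51810919-51812137 had 0 and 85 reads. Both libraries thus had antisense reads at Satb1, as 2 loci. Loci without an annotated partner had 0 and 57 reads on chromosome 9, and 45 and 0 reads on chromosome 18. In all, 11 loci with at least 20 reads were absent from 1 library, 9 from replicate 1 and 2 from replicate 2. For 7 of the 11 the other library held reads of another class on the same strand.

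Of loci read in both libraries, 3 were among the 5 farthest toward replicate 1. Sgcd, the delta-sarcoglycan gene, had 19 and 2 reads, Pvalb 52 and 25 and Msi2, an RNA-binding protein, 25 and 12. The ratio of replicate 2 to replicate 1 for Pvalb was 0.376 (exact 95% interval 0.223 to 0.617, counting error only), and for Msi2 0.375 (0.172 to 0.775).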

How the data were processed

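The libraries' file headers and accompanying notes name mm10 as the build, GENCODE M21 as the annotation and TALON as the tool that made the models. For each library on its own, the authors deposited raw read counts per transcript model and a file of exon coordinates. Aligner, versions, filters: not given in the sources used here. Many deposited model ends coincide with annotated exon edges. The libraries held 1182747 and 1480977 reads, spike-ins included, of which 1132759 and 1449423 were endogenous; SIRV spike-ins were not analysed here. A count of 0 allows up to 3 reads, and intervals and floors cover counting error only.

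Antisense-class models were merged into loci by span overlap on 1 strand. The partner was the opposite-strand gene with the largest exon overlap, then span overlap. Gene spans were taken from exons, since 15935 of 55536 gene lines differed from them. Sense reads were all reads assigned to the partner gene. Named were the 20 loci with most reads, the 10 shared spliced chains with most reads, the 5 loci farthest apart in each direction, the 5 most-read loci of 1 library, the 5 highest antisense over sense ratios, up to 4 partners of each list, and all known pairs with an antisense read. Acta1, Neb, Dmd, Rc3h2, Neat1, Gm36981, Baz2b and the Atp2a1 junction were chosen after their values were seen. Some loci that this rule names are not reported here. Members and lists were chosen with earlier results of these data known. No sample column was left unused. Loci were compared on log2 ratios with 0.5 reads added and a minimum of 20 summed reads, with no test, since there is 1 group. Median-ratio and edgeR 4.0.16 TMM factors (R 4.3.3), other minimums, 1 read added, models of at least 2 reads, other partner and merging rules and other adenine thresholds were alternatives. The merging into loci and the 2-fold rule were checked on simulated data, and the other measures were not. Python 3.11.15, pandas 2.3.3, NumPy 2.4.6 and SciPy 1.17.1 were used.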

Additional observations from a re-analysis of the deposited data

Results flagged for a closer look

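Reads of other classes also belonged to unannotated genes that the deposited files mark as antisense, outside the models analysed above. They numbered 488 in replicate 1 and 1163 in replicate 2, 0.0431% and 0.0802% of endogenous reads, above the 3 reads that a count of 0 allows. Most were of the genomic class, 254 and 769 reads, and no control sample exists to compare them with.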

How the results depend on the processing

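The share of reads in antisense models stayed between 1.69% and 2.24% when computed over annotated genes, over models of at least 2 reads, or without mitochondrial partners, the partner with most reads or the 2 most-read loci, and was 1.70% and 2.66% in the single libraries. Loci numbered 6319 and 10256 in the single libraries, 13233 when joined by exon overlap and 4234 from models of at least 2 reads. Those in both libraries were 587 at 10 or more reads and 3055 with the deeper library thinned. Loci over 2-fold apart numbered 102, with 232 at a minimum of 10 reads and 38 at 50. They were 96 to 98 with median-ratio factors, TMM factors or 1 read added. Scaled by the reads of annotated genes, 94 loci were over 2-fold higher in replicate 2 and 9 in replicate 1. Spliced models were 5.38% to 6.20% by library and 2.71% among models of at least 2 reads. Mirrored introns were 19.4% and 23.1% by library and 23.1% with 10 bases of tolerance. Partners with more antisense than sense reads rose from 120 to 208 when only annotated transcripts counted as sense. By library they were 132 and 169. Intronic loci were 26.3% at 10 or more reads, 59.2% when contacts of up to 2 bases were ignored, and 48.1% to 48.2% by library. The adenine share of 73.7% was 78.0% at 10 of 20 bases, 61.0% at 15, 36.5% with ends on annotated edges included, 48.7% for a run of 8 and 72.1% to 75.3% by library. The adenine measures, the omission of the 2 most-read loci, the contact rule and the subsets of loci were chosen after seeing the data. No paired analysis was possible because there is 1 group. Depth limits loci of few reads: whether a locus seen in 1 library is absent from the other cannot be read below 3 reads.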

Other observations

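The following genes were chosen after their values were seen. Neat1, the noncoding scaffold of paraspeckles, had 3 antisense loci of at least 20 reads, with 47 and 103, 18 and 41, and 7 and 38 reads in replicates 1 and 2, against 112 and 225 sense reads. Malat1, its neighbour on chromosome 19, had 2 such loci, with 16 and 64 and with 2 and 25 reads. All 5 had more reads in replicate 2, the deeper library. After scaling for depth, 80.2% of all 273 antisense loci with at least 20 summed reads were higher there.

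After Dmd, long genes carried the most separate antisense loci. Gm20388 had 30 loci with 23 and 29 reads in all. Pde4d, a phosphodiesterase of cyclic AMP, had 27 loci with 77 and 192 reads against 84 and 90 sense reads. Kcnma1, a calcium-activated potassium channel, had 21 loci with 66 and 100 reads against 15 and 32 sense reads, and Ttn also had 21 loci.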
